A study of Mus musculus with 12 samples.

Results

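The 10 genes described here, Ccl2, Ccl7, Ccl5, Ccl20, Cxcl1, Cxcl5, Cxcl10, Cxcl11, Ppbp and Cx3cl1, encode chemokines measured in a mouse liver cell line, BNL CL.2. They were taken by name, and the names were chosen with earlier results of these data known. Every probe set annotated with exactly 1 of these symbols was used, which gave 16 of 45101 probe sets and 10 of 18194 genes. All 12 arrays, 3 per group, held RNA of BNL CL.2 cells after 24 h of culture, with a second population of cells in an insert. In the group RAW_FAC, macrophages of the mouse line RAW 264.7 were in the insert and 100 micromolar ferric ammonium citrate (FAC), a soluble iron salt, was present. The group FAC had the iron salt with further BNL CL.2 cells in the insert, the group RAW had the macrophages without the salt, and the group alone had further BNL CL.2 cells and no salt. Every group therefore shared the line, the medium and the insert. BNL CL.2 is 1 established line that came from a BALB/c mouse embryo, so all arrays share 1 genetic background, and nothing in the labels says that the replicates were separate cultures. Signals are log2 values, so a difference of 1 is a doubling of signal.

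Chemokines are small secreted proteins that draw leukocytes along a gradient by binding receptors on their surface. They are grouped by the spacing of their first cysteines into CC (Ccl genes), CXC (Cxcl genes and Ppbp) and CX3C (Cx3cl1) forms. Hepatocytes and other liver cells make several of them during injury and infection, where the transcription factor NF-kB drives many of the CC and neutrophil-attracting CXC genes and interferon drives Cxcl10 and Cxcl11. Ccl2 and Ccl7 attract monocytes through Ccr2. Cxcl1, Cxcl5 and Ppbp act on neutrophils through Cxcr2. Ccl20 attracts Ccr6-bearing lymphocytes and dendritic cells. Cxcl10 and Cxcl11 act on activated T cells through Cxcr3, and Ccl5 acts on T cells and monocytes. Cx3cl1 is made as a membrane protein and binds Cx3cr1.

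Neighbouring genes of a chemokine cluster are listed in order in RefSeq's annotation of GRCm38.p6. Only protein-coding genes and transcribed pseudogenes were kept for this order. On chromosome 11, Ccl7 directly follows Ccl2. On chromosome 5, Ppbp directly follows Cxcl5, Cxcl2 directly follows Cxcl1, and Cxcl11 directly follows Cxcl10. The promoters of 5 of the 10 genes (Ccl20, Cxcl1, Cxcl10, Ppbp and Cx3cl1) were in the RefSeq sequence table used, and the 250 bases before each start were searched on both strands for the NF-kB consensus and for the interferon-stimulated response element. The 3 sequences below were picked with the values of their genes known, because these genes moved in different ways across the 4 groups. They are read 5′ to 3′ on the plus strand of GRCm38.p6, at chr1:83116516-83116765 for Ccl20, chr5:90890995-90891244 for Cxcl1 and chr5:90768268-90768517 for Ppbp, and capitals mark the NF-kB match.
Ccl20: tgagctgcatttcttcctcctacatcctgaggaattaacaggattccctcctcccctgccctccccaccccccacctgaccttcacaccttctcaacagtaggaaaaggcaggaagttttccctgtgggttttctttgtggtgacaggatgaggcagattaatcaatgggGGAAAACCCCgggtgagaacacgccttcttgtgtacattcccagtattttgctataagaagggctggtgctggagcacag
Cxcl1: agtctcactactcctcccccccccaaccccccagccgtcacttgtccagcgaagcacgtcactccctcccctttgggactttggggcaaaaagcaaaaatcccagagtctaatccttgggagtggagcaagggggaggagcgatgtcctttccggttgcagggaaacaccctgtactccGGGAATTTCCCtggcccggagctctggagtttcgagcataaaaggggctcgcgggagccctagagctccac
Ppbp: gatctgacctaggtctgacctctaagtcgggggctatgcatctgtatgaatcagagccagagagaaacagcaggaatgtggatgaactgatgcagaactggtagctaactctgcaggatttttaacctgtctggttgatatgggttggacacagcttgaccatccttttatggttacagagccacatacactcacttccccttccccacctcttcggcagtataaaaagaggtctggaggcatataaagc
The NF-kB consensus was found in 3 of the 5 windows: 1 match 80 bases before the Ccl20 start, 2 overlapping matches in 1 run 71 bases before the Cxcl1 start, and runs 159 and 104 bases before the Cxcl10 start. No match was found in the Ppbp and Cx3cl1 windows. Over all 32851 promoters in the table, 2382 (7.25%) held it. The interferon-stimulated response element was found in 1 of the 5 windows, that of Cxcl10, against 978 of all promoters (2.98%). These are matches of letters and were not tested as binding sites. The Cxcl10 window, which is not printed, held the most NF-kB matches, and Cxcl10 did not pass the threshold in any comparison given below. A link between matches and the direction of a gene was not tested.

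The design asked what iron, macrophages and both together did to the liver cells. The iron-linked difference is the average of FAC minus alone and RAW_FAC minus RAW, and the macrophage-linked difference the average of RAW minus alone and RAW_FAC minus FAC. Comparisons share arrays and are not independent of each other. With 1 mean per group in limma, none of the 10 chemokine genes passed a Benjamini-Hochberg adjusted p of 0.05 in any of 9 comparisons. The smallest adjusted p was 0.487, for the iron-linked difference of Ppbp. At an unadjusted p under 0.05 that fit had 1 of the 10 genes for the iron-linked difference, against 6.51% of all genes, and 1 for the macrophage-linked difference, against 3.94%. Of all genes, 0.0055% passed as lower with iron and 0% as higher, and 0.011% passed as higher with macrophages and 0% as lower.

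The arrays carried a common shift with their replicate number, and a fit with that number as a block removed it. With the block, 3 of the 10 genes passed for the iron-linked difference: Ccl20 and Cxcl1 higher and Ppbp lower. Among all genes 0.638% passed as higher and 0.154% as lower. For the macrophage-linked difference 3 of the 10 passed, Ccl2, Ccl7 and Cxcl1, all higher, against 0.055% of all genes higher and 0% lower. Counted by same-number pairs, Ccl2, Ccl7, Ccl20 and Cxcl1 were higher with macrophages in 6 of 6 pairs, as were 3.09% of all genes, and none of the 10 was lower in 6 of 6, as were 2.8%. With iron, Ccl2 and Ccl20 were higher in 6 of 6 pairs (4.14% of all genes) and Ppbp was lower in 6 of 6 (4%). The fit without the block, in which none of the 10 genes passed, was the main test, and the block was an alternative to it. The words "rose" and "fell" are used of this blocked fit, and every standard error (SE) and adjusted p is limma's with the replicate block unless said otherwise.

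**Figure D1:**
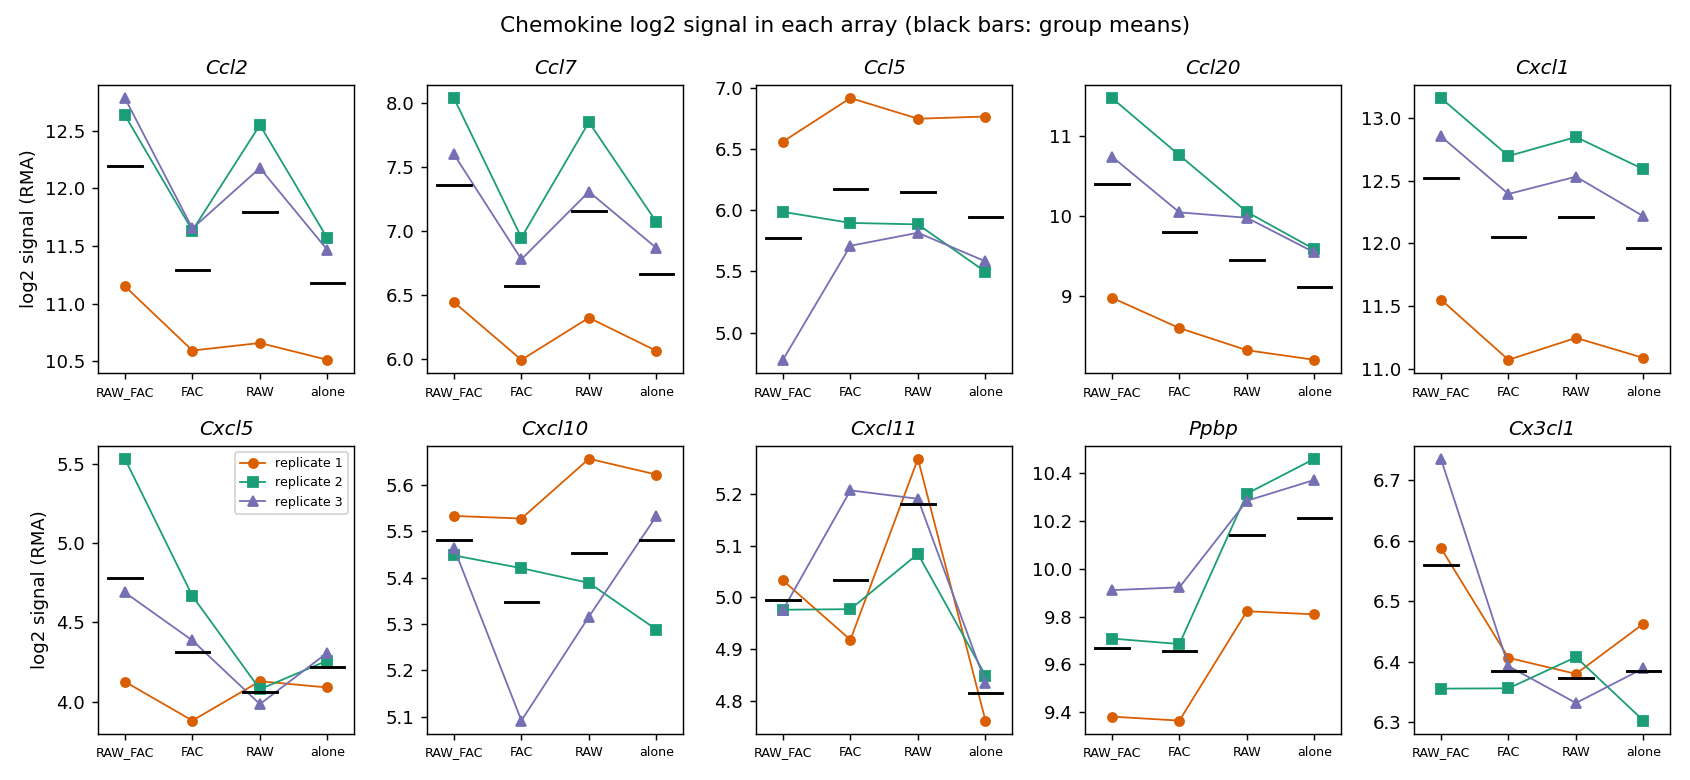
Log2 signal of each chemokine gene (1 probe set per gene, vertical axes differ) in the 4 groups, with lines joining arrays of the same replicate number and black bars at the group means of 3 arrays. Replicate 1 is lowest in every group for Ccl2, Ccl7, Ccl20, Cxcl1 and Ppbp.

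Ccl2, the main monocyte attractant, was higher with macrophages in 6 of 6 same-number pairs. Its log2 signal (probe set 1420380_at) in replicates 1, 2 and 3 was 11.15, 12.64 and 12.79 in RAW_FAC and 10.59, 11.64 and 11.65 in FAC. It was 10.66, 12.55 and 12.18 in RAW and 10.51, 11.57 and 11.47 in alone. Replicates 2 and 3 of both macrophage groups stood above every array without macrophages, while replicate 1 was low in all 4 groups, so that the groups overlapped. The macrophage-linked difference was 0.76 ± 0.11 (SE), a 1.69-fold change with an adjusted p of 0.0493. Without the block the SE was 0.36 and limma's adjusted p was 0.9997. The single pairs ranged from 0.15 in RAW minus alone replicate 1 to 1.13 in RAW_FAC minus FAC replicate 3. The iron-linked difference was 0.25 ± 0.11 (adjusted p = 0.371), although all 6 pairs were above 0. In bulk RNA, fewer cells of a kind and less RNA per cell cannot be told apart.

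Ccl7, the chromosomal neighbour of Ccl2 with the same receptor, followed it closely. Its values (1421228_at) were 6.44, 8.04 and 7.60 in RAW_FAC, 5.99, 6.95 and 6.78 in FAC, 6.32, 7.85 and 7.30 in RAW, and 6.06, 7.07 and 6.87 in alone. Within each replicate number both macrophage arrays exceeded both arrays without macrophages. Ccl7 rose with macrophages by 0.64 ± 0.08 (1.56-fold, adjusted p = 0.0358), and 6 of 6 pairs lay between 0.26 and 1.09. Its iron-linked difference was 0.05 ± 0.08 (adjusted p = 0.845), with a 95% confidence interval of -0.13 to 0.23. The pairs split with the macrophages: 3 of 3 were above 0 in RAW_FAC minus RAW, as for 15.1% of all genes, and 3 of 3 below 0 in FAC minus alone, as for 14.8%.

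Both macrophage-linked calls rested on the replicate 2 and 3 arrays. Leaving out 1 array at a time with the block kept Ccl2 and Ccl7 past the threshold only when the omitted array was 1 of the 4 replicate 1 arrays. In the other 8 fits the adjusted p was 0.130 to 0.246 for Ccl2 and 0.119 to 0.205 for Ccl7, with differences of 0.66 or more for Ccl2 and 0.59 or more for Ccl7. In the fit of all probe sets with the block both calls were lost (adjusted p = 0.0647 for Ccl2 and 0.0504 for Ccl7). With all 4 replicate 1 arrays left out, a choice made after the values were seen, Ccl2 rose by 0.96 (adjusted p = 0.0102 with the block, 0.00582 without) and Ccl7 by 0.78 (adjusted p = 0.0125 with the block, 0.151 without). Of all genes, 0.242% passed as higher with macrophages in that smaller fit with the block and 0.132% without it.

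Cxcl1, a neutrophil attractant, passed for both differences. Its brightest probe set (1457644_s_at) read 11.55, 13.16 and 12.85 in RAW_FAC, 11.08, 12.70 and 12.39 in FAC, 11.25, 12.85 and 12.53 in RAW, and 11.09, 12.59 and 12.22 in alone. The groups overlapped, but within a replicate number the order was the same in replicates 2 and 3, with RAW_FAC highest, then RAW, FAC and alone. In replicate 1, alone (11.09) and FAC (11.08) changed places. The macrophage-linked difference was 0.35 ± 0.04 (1.28-fold, adjusted p = 0.0160) with 6 of 6 pairs higher. The iron-linked difference was 0.20 ± 0.04 (1.15-fold, adjusted p = 0.0410) with 5 of 6 pairs higher. RAW_FAC minus FAC was nearly the same in the 3 pairs, at 0.48, 0.46 and 0.46, and RAW_FAC minus RAW was 0.30, 0.31 and 0.32.

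The calls of Cxcl1 were close to the threshold. Its iron-linked call held in 1 of 12 fits that left out an array (without alone replicate 1), and the adjusted p in the other 11 was 0.0794 to 0.147. It was also lost without the 4 replicate 1 arrays (0.23, adjusted p = 0.162 with the block). The macrophage-linked call held in 5 of 12, with 0.0691 to 0.108 in the other 7. The second probe set, 1419209_at, gave 0.35 ± 0.05 for macrophages and 0.23 ± 0.05 for iron, and the third, 1441855_x_at, 0.33 ± 0.06 and 0.10 ± 0.06. In the fit of all probe sets with the block, the macrophage-linked difference of 1457644_s_at passed (adjusted p = 0.0486) and the other 5 of these 6 did not. The suffixes s_at and x_at mark probe sets whose probes can match more than 1 transcript, so a share of their signal may come from related genes.

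Ppbp, the precursor of a platelet chemokine that acts on neutrophils, was the chemokine gene that fell with iron. The values (1418480_at) were 9.38, 9.71 and 9.91 in RAW_FAC, 9.36, 9.69 and 9.92 in FAC, 9.82, 10.32 and 10.29 in RAW, and 9.81, 10.46 and 10.37 in alone. Replicates 2 and 3 without the salt were above all 6 arrays with it, and replicate 1 without the salt (9.82 and 9.81) was above 4 of those 6. The iron-linked difference was -0.52 ± 0.05, a 1.43-fold decrease with an adjusted p of 0.00282, and 6 of 6 pairs were lower, between -0.78 and -0.37. The decrease was -0.56 ± 0.07 in FAC minus alone (adjusted p = 0.0460) and -0.47 ± 0.07 in RAW_FAC minus RAW (adjusted p = 0.0599). In FAC minus alone 0.011% of all genes passed as lower, with 0.022% as higher, and in RAW_FAC minus RAW 0.0165% passed as lower.

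Macrophages left Ppbp within a narrow range. The macrophage-linked difference was -0.03 ± 0.05 (adjusted p = 0.940), with a 95% confidence interval of -0.15 to 0.08. The largest single pair was RAW minus alone replicate 2 at -0.15, and the 3 RAW_FAC minus FAC pairs were 0.02, 0.02 and -0.01. The iron-linked call held in 12 of 12 fits that left out an array, with adjusted p from 0.00509 to 0.0165 and differences from -0.54 to -0.47. It was lost when all replicate 1 arrays were left out together (-0.55, adjusted p = 0.0695 with the block). The FAC minus alone call held in none of the 12.

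Cxcl5, a neutrophil attractant encoded next to Ppbp, did not pass in any comparison. Its values (1419728_at) were 4.13, 5.53 and 4.69 in RAW_FAC, 3.88, 4.67 and 4.39 in FAC, 4.13, 4.08 and 3.98 in RAW, and 4.09, 4.26 and 4.31 in alone. The highest array was RAW_FAC replicate 2, and RAW_FAC replicate 1 and RAW replicate 1 both read 4.13. RAW_FAC minus RAW was 0.72 ± 0.21 (adjusted p = 0.278), with pairs of -0.003, 1.45 and 0.70. The iron-linked difference of Cxcl5 was 0.41 ± 0.15 (adjusted p = 0.306), opposite in sign to that of Ppbp. Its macrophage-linked difference was 0.16 ± 0.15 (adjusted p = 0.883).

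Ccl20, which attracts Ccr6-bearing cells, had the largest iron-linked difference of the 10 genes. The values (1422029_at) were 8.97, 11.48 and 10.74 in RAW_FAC, 8.59, 10.76 and 10.04 in FAC, 8.32, 10.05 and 9.98 in RAW, and 8.19, 9.58 and 9.54 in alone. In each replicate number the order was RAW_FAC, FAC, RAW, alone from high to low. The iron-linked difference was 0.82 ± 0.12 (1.77-fold, adjusted p = 0.0138), and 6 of 6 pairs were higher, between 0.40 and 1.43. Both of the largest pairs were of replicate 2, at 1.43 in RAW_FAC minus RAW and 1.18 in FAC minus alone. FAC minus alone was 0.69 ± 0.17 (adjusted p = 0.408) and RAW_FAC minus RAW 0.95 ± 0.17 (adjusted p = 0.0793), so neither part passed by itself.

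With macrophages Ccl20 was higher in 6 of 6 pairs as well, between 0.12 and 0.72, but the difference of 0.47 ± 0.12 did not pass (adjusted p = 0.374). The iron-linked call held in 9 of 12 fits that left out an array and was lost without FAC replicate 1, FAC replicate 2 or RAW replicate 2 (adjusted p 0.0510 to 0.0555). It was also lost without the 4 replicate 1 arrays, where the difference was 0.97 (adjusted p = 0.0857 with the block). In that smaller fit 0.0055% of all genes passed as higher with iron.

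**Figure D2:**
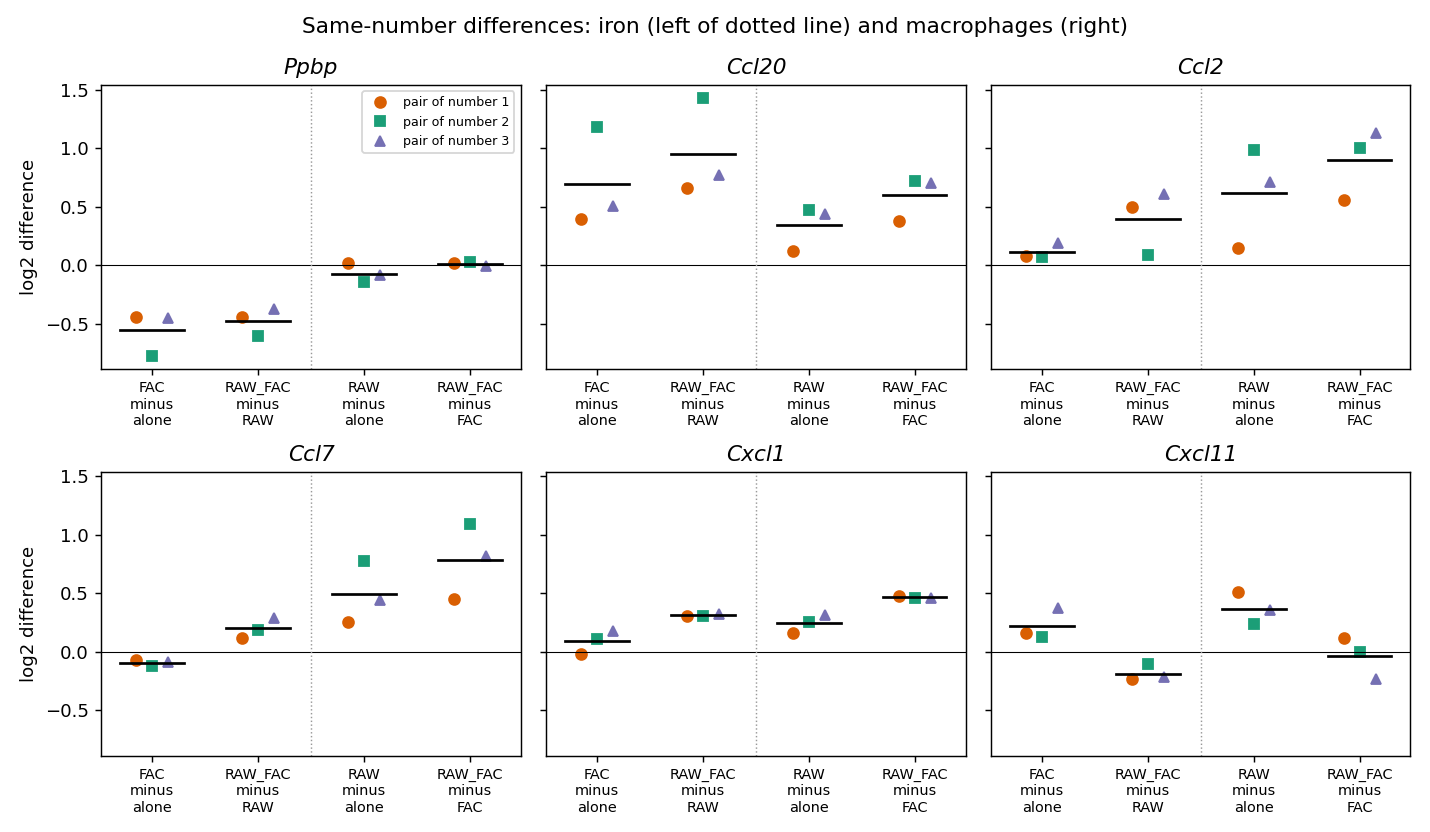
Log2 differences between arrays of the same replicate number for 6 chemokine genes, in FAC minus alone and RAW_FAC minus RAW (left of the dotted line) and in RAW minus alone and RAW_FAC minus FAC (right), with black lines at the mean of 3 pairs. Ppbp lies between -0.78 and -0.37 in the iron pairs and near 0 in the macrophage pairs, while Ccl7 lies between 0.26 and 1.09 in the macrophage pairs.

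The T cell attractants did not pass in any comparison. Cxcl10, an interferon-induced gene, had values (1418930_at) of 5.53, 5.45 and 5.46 in RAW_FAC, 5.53, 5.42 and 5.09 in FAC, 5.66, 5.39 and 5.32 in RAW, and 5.62, 5.29 and 5.53 in alone. All 4 groups overlapped. The macrophage-linked difference of Cxcl10 was 0.05 ± 0.07, with a 95% confidence interval of -0.09 to 0.20, and the iron-linked one was -0.05 ± 0.07, with an interval of -0.20 to 0.09. Its signals, 5.09 to 5.66, lay at or below the array medians of 5.63 to 5.68.

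Cxcl11 is listed in RefSeq's GRCm38.p6 annotation, which is of another mouse strain than this line, as a transcribed pseudogene. Its probe set 1419697_at gave 5.03, 4.98 and 4.98 in RAW_FAC, 4.92, 4.98 and 5.21 in FAC, 5.27, 5.08 and 5.19 in RAW, and 4.76, 4.85 and 4.83 in alone. These signals, 4.76 to 5.27, lay below the array medians of 5.63 to 5.68. The 3 arrays of alone were the lowest of the 12, and the RAW arrays did not overlap with those of RAW_FAC. RAW minus alone was 0.37 ± 0.08 (adjusted p = 0.585) and FAC minus alone 0.22 ± 0.08 (adjusted p = 0.660), each without overlap between groups. Of all genes, 4.67% had RAW_FAC arrays above alone without overlap, 3.74% FAC arrays above alone, 5.16% RAW arrays above alone and 5.27% RAW_FAC arrays below RAW. By same-number pairs, Cxcl11 was higher in 3 of 3 in FAC minus alone (13.4% of all genes) and lower in 3 of 3 in RAW_FAC minus RAW (15.3%). The second probe set of Cxcl11, 1419698_at, read 3.33 to 3.64 and did not share this order: RAW minus alone was -0.02 ± 0.07 and FAC minus alone -0.03 ± 0.07.

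Ccl5 had values (1418126_at) of 6.56, 5.99 and 4.78 in RAW_FAC, 6.92, 5.90 and 5.71 in FAC, 6.75, 5.88 and 5.82 in RAW, and 6.77, 5.50 and 5.58 in alone. Replicate 1 was the highest array in every group, and RAW_FAC replicate 3 was the lowest of the 12. The macrophage-linked difference was -0.10 ± 0.14 (adjusted p = 0.926) and the iron-linked one -0.07 ± 0.14 (adjusted p = 0.877). Pairs were on both sides of 0 for each.

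Cx3cl1, the membrane-bound chemokine, had 4 probe sets. The brightest, 1415803_at, gave 6.59, 6.36 and 6.73 in RAW_FAC, 6.41, 6.36 and 6.39 in FAC, 6.38, 6.41 and 6.33 in RAW, and 6.46, 6.30 and 6.39 in alone. RAW_FAC replicates 1 and 3 were the highest arrays and replicate 2 lay among the other groups. RAW_FAC minus RAW was 0.19 ± 0.08 (adjusted p = 0.405) and RAW_FAC minus FAC 0.17 ± 0.08 (adjusted p = 0.874). The iron-linked difference on this probe set was 0.09 ± 0.05 (adjusted p = 0.534) and the macrophage-linked one 0.08 ± 0.05 (adjusted p = 0.814). The other 3 Cx3cl1 probe sets gave RAW_FAC minus RAW differences of -0.01 (1415804_at), -0.11 (1421610_at) and -0.08 (1441884_x_at). Their iron-linked differences, in the same order, were -0.01 ± 0.05, -0.14 ± 0.05 and -0.07 ± 0.10, so the probe sets of this gene disagreed in sign.

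Whether the macrophage-linked and the iron-linked difference of a chemokine gene were unequal was tested directly. The test is RAW minus FAC, which equals the macrophage-linked minus the iron-linked difference because alone cancels. Signs are kept, so it does not say which of them is larger in size. Of the 10 genes Ppbp alone passed with the block, at 0.48 ± 0.07 (1.40-fold higher in RAW than in FAC, adjusted p = 0.0457), with 3 of 3 pairs higher at 0.46, 0.63 and 0.36. Its macrophage-linked value was -0.03 and its iron-linked value -0.52. Of all genes 0.0495% passed as higher in RAW than in FAC and 0.17% as lower. That call was lost in 11 of the 12 fits that left out an array (adjusted p 0.0511 to 0.237) and held without alone replicate 2. For Ccl7 the value was 0.59 ± 0.12 (adjusted p = 0.0888) and for Ccl2 0.50 ± 0.15 (adjusted p = 0.274), each with 3 of 3 pairs higher in RAW. For Ccl20 it was -0.35 ± 0.17 (adjusted p = 0.544) with 3 of 3 pairs lower in RAW, and for Cxcl1 0.15 ± 0.05 (adjusted p = 0.350) with 3 of 3 pairs higher. Among all genes 16.8% had 3 of 3 pairs higher in RAW and 14.5% had 3 of 3 lower. For Ccl2, Ccl7, Ccl20 and Cxcl1 a difference between the macrophage-linked and the iron-linked value was therefore not shown.

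**Figure D3:**
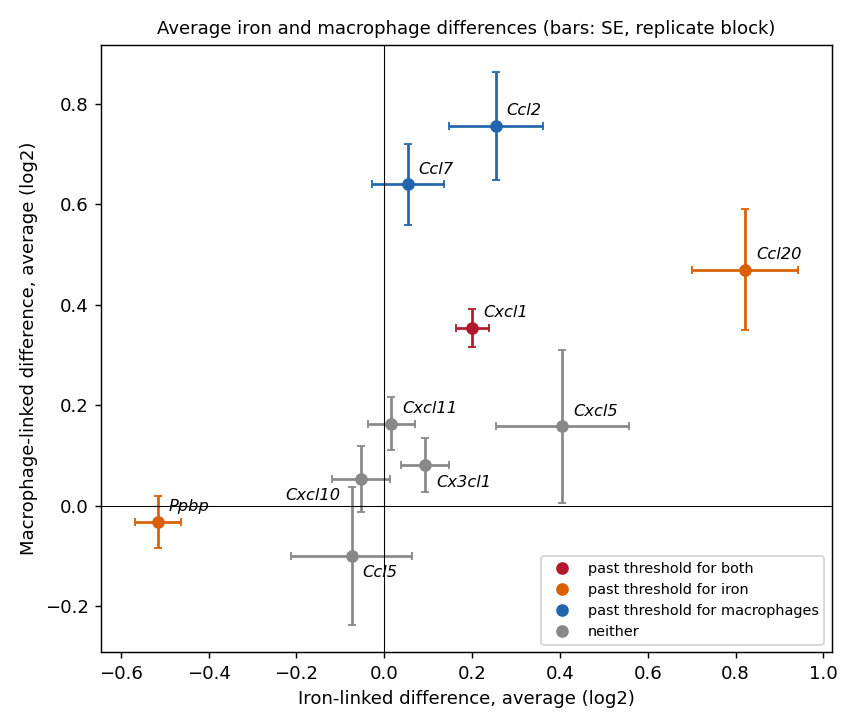
Macrophage-linked against iron-linked log2 difference of the 10 chemokine genes, each an average over 6 same-number pairs, with bars of 1 SE from the fit with the replicate block. Ccl20 and Ppbp passed for iron, Ccl2 and Ccl7 for macrophages and Cxcl1 for both. Ccl5, Cxcl5, Cxcl10, Cxcl11 and Cx3cl1 passed for neither.

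Iron and macrophages together were compared with neither in RAW_FAC minus alone. With the block 4 of the 10 genes passed, 3 higher and 1 lower, against 0.143% of all genes higher and 0.0605% lower. Ccl20 rose by 1.29 ± 0.17 (2.45-fold, adjusted p = 0.0242), Ccl2 by 1.01 ± 0.15 (2.01-fold, adjusted p = 0.0395) and Cxcl1 by 0.55 ± 0.05 (1.47-fold, adjusted p = 0.00824). Ppbp fell by 0.55 ± 0.07 (adjusted p = 0.0246), close to its value with iron and no macrophages. Ccl7, at 0.69 ± 0.12, had an adjusted p of 0.0507. The pairs for Ccl20 were 0.78, 1.90 and 1.20, those for Ccl2 0.64, 1.07 and 1.32, and those for Cxcl1 0.46, 0.57 and 0.63.

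Leaving out 1 array at a time with the block kept these calls in 9 of 12 fits for Cxcl1, 8 for Ccl20, 8 for Ppbp and 5 for Ccl2. Ccl20 and Ppbp were each lost without RAW_FAC replicate 2, RAW_FAC replicate 3, alone replicate 2 or alone replicate 3 (adjusted p 0.0770 to 0.127 for Ccl20, 0.0770 to 0.166 for Ppbp). Cxcl1 was lost without RAW_FAC replicate 2, RAW_FAC replicate 3 or alone replicate 2 (0.0673 to 0.0771). Ccl2 was lost in 7 fits (0.0560 to 0.263), those without a replicate 3 array or without replicate 2 of RAW_FAC, FAC or alone. With all 4 replicate 1 arrays left out, Ccl2 rose by 1.20 and passed also without the block (adjusted p = 0.0286), against 0.0769% of all genes higher. With the block Ccl2 (adjusted p = 0.0217), Ccl7 (0.85, adjusted p = 0.0364), Ccl20 (1.55, adjusted p = 0.0364) and Cxcl1 (0.60, adjusted p = 0.0217) passed, against 0.319% of all genes higher and 0.044% lower, and Ppbp (-0.61, adjusted p = 0.0750) did not.

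None of the 10 genes passed for the interaction, the difference between the iron effect with and without macrophages, in either fit. With the block the adjusted p was 0.999 for each, and at an unadjusted p under 0.05 the fit without the block had 1 of the 10, Cxcl11, against 2.97% of all genes. Cxcl1 had the narrowest interval, 0.22 ± 0.07 with a 95% confidence interval of 0.06 to 0.39. Cxcl11 had -0.41 ± 0.11 with an interval of -0.64 to -0.17. Both intervals exclude 0, but they are not adjusted for the number of genes. The share of all genes with such an interval was not counted in the fit with the block. Ppbp had 0.08 ± 0.11 with an interval of -0.15 to 0.31. RAW minus alone and RAW_FAC minus FAC had 0 chemokine genes past the threshold, as they had 0% of all genes, with or without the block. RAW_FAC minus RAW likewise had 0 of the 10, against 0.0605% of all genes higher and 0.0165% lower with the block.

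Ccl2, Ccl7, Ccl5, Ccl20, Cxcl1 and Cxcl10 differed more between replicate numbers than between the means of any of the groups. Replicate 1 was below replicates 2 and 3 in all 4 groups for Ccl20 (on average by a log2 difference of -1.75), Cxcl1 (-1.42), Ccl2 (-1.33), Ccl7 (-1.10) and Ppbp (-0.49). It was above them in all 4 groups for Ccl5 (1.10) and Cxcl10 (0.22). Of 18194 genes, 18 (0.0989%) were lower by 1 or more in replicate 1, and 4 of those 18 were Ccl20, Cxcl1, Ccl2 and Ccl7. Cxcl3 (-1.55), named after its value was seen, was also among them. Only 3 genes (0.0165%) were higher by 1 or more, and Ccl5 was 1 of them.

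Of the variance over the 12 arrays, the replicate number held 91.1% for Cxcl1, 79.9% for Ccl5, 72.8% for Ccl20, 70.1% for Ccl7, 67.4% for Ccl2, 47.3% for Cxcl10 and 43.0% for Ppbp. The median over all genes was 26.9%. For Ppbp the group held more, 53.4%, and for Cxcl11 the replicate number held 5.0% and the group 74.4%. What the number stands for is not given in the labels. The size of the shift itself varied with the group: for Ccl20 it was -2.14 where it was largest, in RAW_FAC, and -1.37 where it was smallest, in alone. A difference in shift between groups is not removed by the block.

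**Figure D4:**
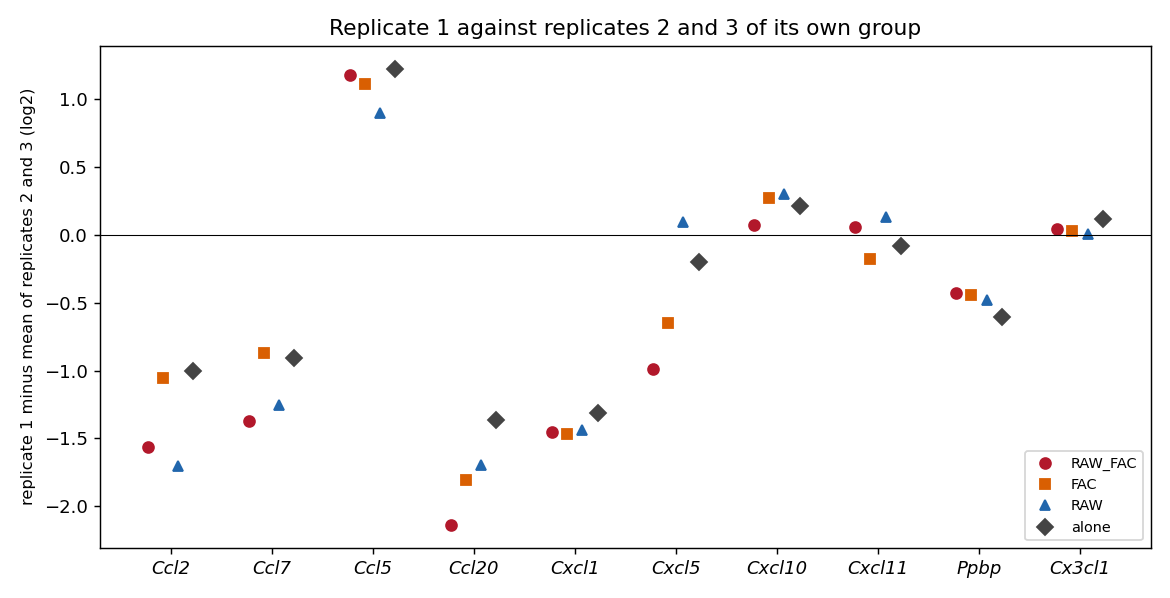
Log2 signal of replicate 1 minus the mean of replicates 2 and 3 of the same group, for each chemokine gene and group. Ccl20, Cxcl1, Ccl2, Ccl7 and Ppbp lie below 0 in all 4 groups, Ccl5 between 0.90 and 1.23 above it, and Cxcl11 and Cx3cl1 near 0.

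By Pearson correlation over the 12 arrays, the genes with the pattern most like Ccl2 were C1ra (0.98), Ccl7 (0.97) and Psmd10 (0.95), and those most like Ccl7 were Ccl2, Zfpm2 (0.96) and Psmd10 (0.96). Those most like Cxcl1 were Gstm5 (0.97), Zfpm2 (0.97) and C1ra (0.97), so C1ra, a complement protease, came out for both Ccl2 and Cxcl1. Ccl20 was most like Psph (0.98), Phf10 (0.97) and Ticam1 (0.97), and Ppbp most like Ccdc50 (0.95), Gm15934 (0.90) and Crybg2 (0.89). All 12 points share the replicate shift, which raises such values. After the mean of each replicate number was removed, Ccl2 and Ccl7 still had 0.95, whereas Ccl20 and Ppbp had -0.87, against 0.18 before. These values describe 12 arrays of 4 groups and carry no test.

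The other chemokine ligands on the array were counted beside the 10 genes. None of 25 passed in any comparison in either fit, and their median macrophage-linked difference was 0.03, with 16 of 25 above 0. For the 10 genes this median was 0.16 with 8 of 10 above 0, and for all genes 0.01. Because the 10 genes and the lists were chosen with earlier results of these data known, this contrast is a description and not a test. Cxcl2 and Cxcl3, which lie in the same cluster as Cxcl1 and were picked here with their values known, had macrophage-linked differences of 0.48 ± 0.10 (adjusted p = 0.176) and 0.58 ± 0.18 (adjusted p = 0.518). None of 21 chemokine receptors passed, with a median of -0.01, and none of 8 genes for chemokine processing (0.02) or 11 inflammatory cytokines (-0.02). With iron the medians were 0.07 for the 10 genes, -0.01 for the other ligands and -0.01 for the receptors.

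Genes of the NF-kB and interferon pathways, regulators and targets together, were counted in the same way. Among 12 NF-kB pathway genes none passed in any comparison, while 11 of 12 had a macrophage-linked difference above 0 (median 0.22) and 9 of 12 an iron-linked one above 0 (median 0.08). For all genes these medians were 0.01 and -0.002. The genes of a list share arrays and are not independent, and the activity of either pathway was not tested. Among 12 interferon pathway genes 10 were above 0 with macrophages (median 0.22), and 2 passed with the block. Irf9, a subunit of the interferon-activated transcription factor complex, rose with macrophages by 1.41 ± 0.15 (2.65-fold, adjusted p = 0.0160) and also passed without the block (SE 0.16, adjusted p = 0.0125). Xaf1, an interferon-induced gene, rose by 2.52 ± 0.34 (5.72-fold, adjusted p = 0.0428). Irf9 further passed with the block in RAW_FAC minus alone (1.45 ± 0.22, adjusted p = 0.0395) and RAW minus FAC (1.36 ± 0.22, adjusted p = 0.0457). Cxcl10 and Cxcl11, which interferon is known to induce, did not pass in the same comparisons.

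The labelled cell type was checked through markers. Of 10 hepatocyte markers, the keratin genes Krt8 (14.2 to 14.3) and Krt18 (14.0 to 14.2) and the liver genes Hnf4a (10.2 to 10.7) and Apob (11.1 to 12.4) were bright, whereas Alb (5.02 to 5.38), Cps1 (3.90 to 4.48) and Fgb (4.05 to 4.56) were below the median of the arrays. From the mesenchymal list, Vim and S100a4 were bright as well (14.0 to 14.3 and 13.7 to 14.0). Col1a1 (4.45 to 4.98), Col1a2 (5.31 to 5.53) and Col3a1 (4.04 to 4.39) were below the median of the arrays. So were Pdgfrb (4.64 to 4.88) and Thy1 (4.69 to 5.04), while Acta2 read 6.08 to 6.42. Of the hepatocyte list, 1 gene passed: Afp, with an iron-linked difference of 0.45 ± 0.07 (adjusted p = 0.0168). None of 8 mesenchymal or 4 endothelial markers passed in any comparison.

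Beside these values, 15 macrophage markers were measured, since the insert of RAW_FAC and RAW held macrophages. None passed in any comparison in either fit. The log2 of their summed signal was 12.28 to 12.41 in RAW_FAC and 12.17 to 12.26 in RAW, against 12.18 to 12.36 in FAC and 12.19 to 12.34 in alone. Over all 12 arrays Ptprc read 3.32 to 3.72, Adgre1 4.74 to 5.21, Cd68 5.30 to 5.86 and Lyz2 5.07 to 5.93. Cd53, Laptm5, Csf1r and Spi1 stayed above the array medians of 5.63 to 5.68, with lowest values of 7.12, 6.75, 6.23 and 5.69. Cd14 was bright throughout (11.9 to 12.2) and makes up most of the summed signal. Without Cd14, left out after its values were seen, the log2 summed signal of the other 14 markers was 9.57 to 9.59 in RAW_FAC and 9.47 to 9.65 in RAW, against 9.43 to 9.57 in FAC and 9.44 to 9.53 in alone. On this sum RAW_FAC lay above alone and barely above FAC, while RAW overlapped both FAC and alone, and its part in the chemokine differences was not tested. The macrophage markers had a median macrophage-linked difference of 0.06, with 11 of 15 above 0, against 0.64 for Ccl7 and 0.76 for Ccl2.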

How the data were processed

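Gene expression was measured on 12 Affymetrix arrays, 3 per group. The deposited values are log2 signals. Per the submitters' processing notes, the authors made them with affy and RMA. For the versions and a genome build, none was given in the sources used here. No further scaling was applied: array medians lay between 5.63 and 5.68. Precision is limited by the number of arrays.

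Of 45101 probe sets, 34958 had 1 symbol, 932 several and 9211 none, and 34754 matched RefSeq by gene ID. The probe set with the highest mean stood for its gene, which gave 18194 genes. Of the 10 chemokine genes, 3 had more than 1 probe set, and 5 (Ccl2, Ccl7, Ccl20, Cxcl1 and Ppbp) had a mean above 6.82, the median over genes.

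Group means of all genes were compared with limma 3.58.1 in R 4.3.3, with two-sided tests and Benjamini-Hochberg adjustment over 18194 genes. The alternative with replicate number as an additive block is printed beside it because same-number residuals correlated at 0.26 to 0.53 (18 pairs, median 0.33). Different-number residuals correlated at -0.35 to -0.01 (36 pairs, median -0.17). Residuals were taken from group means, which on average ties the different-number values to the opposite sign of the same-number ones. The different-number values therefore add no separate support for the block. The replicate numbers come from the sample titles, and their meaning is not stated. The same-number correlation was higher between arrays alike in iron (median 0.43) than between arrays that differ in it (0.31), so blocked SE and adjusted p of iron comparisons may be too small. All p-values rest on the spread between these arrays, which may be technical.

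The 10 genes, the lists (other ligands, receptors, processing, NF-kB, interferon, cytokines, cell type markers) and the naming rule were chosen with earlier results of these data known. The rule named the 10 genes, list members past the threshold in either fit, and the 3 genes most correlated with each chemokine. Alternatives were the block, other probe set choices, median centring, quantile normalization, a filter on low genes, trended robust moderation, array weights, fits to the compared groups and leaving arrays out. The fits were tested on simulated data. Python 3.11.15 with pandas 2.3.3, numpy 2.4.6 and matplotlib 3.10.9 was used for tables and plots. Promoters are from RefSeq (GRCm38.p6).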

Additional observations from a re-analysis of the deposited data

Results flagged for a closer look

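The same-number pairs of Ccl7 with iron had opposite signs with and without macrophages. In RAW_FAC minus RAW it was higher in 3 of 3 same-number pairs (mean 0.20), and in FAC minus alone it was lower in 3 of 3 (mean -0.09). The gap between them, the interaction, was 0.29 with an adjusted p of 0.999 in limma with the replicate block, so the effects were not shown to differ. Without FAC replicate 2, FAC minus alone was 0.01 with the block.

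The pairs of Cxcl11 had the reverse signs on probe set 1419697_at. RAW_FAC minus RAW was -0.19 with 3 of 3 pairs lower, and FAC minus alone was 0.22 with 3 of 3 higher. The interaction was -0.41 and its adjusted p was again 0.999 with the block, while the second probe set, 1419698_at, gave 0.13 for the same quantity.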

How the results depend on the processing

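Without a block, 0 of the 10 chemokine genes passed in each of the 9 comparisons, and the count stayed 0 with all probe sets, the mean over probe sets, median centring, quantile normalization, low genes left out, trended robust moderation, array weights and fits to the compared groups (the last not possible for averages and the interaction). The replicate block gave 1 gene in FAC minus alone, 4 in RAW_FAC minus alone, 3 for the iron-linked difference, 3 for the macrophage-linked difference and 1 in RAW minus FAC, and 0 in the other 4 comparisons. All probe sets with the replicate block gave 4, 2 and 1 in RAW_FAC minus alone, iron-linked and macrophage-linked. Ccl2 and Ccl7 macrophage-linked, Cxcl1 iron-linked, and Ppbp in FAC minus alone and RAW minus FAC were then lost. Leaving out all replicate 1 arrays, added after the data were seen, gave 1 in RAW_FAC minus alone and 1 macrophage-linked without the block (Ccl2 in both), and 4 and 3 with it. Its iron-linked count was 0 in both fits, so the iron-linked calls of Ppbp, Ccl20 and Cxcl1 were lost, as were the other 3 calls of Ppbp. Over fits leaving out 1 array, with or without the block, counts ran from 0 to 5 in RAW_FAC minus alone, 0 to 3 iron-linked, 0 to 3 macrophage-linked, 0 to 1 in RAW_FAC minus RAW and 0 to 1 in RAW minus FAC, and were 0 in the other comparisons. Of the differences that passed with the replicate block, only Cxcl1 iron-linked changed sign in these alternatives: it was -0.04 without RAW replicate 1 and -0.02 without alone replicate 1, in the fit without the block, where the groups then hold unequal replicate numbers. For Cxcl11, the mean over its probe sets gave 0.17 in RAW minus alone and -0.14 for the interaction. The block removes a shift common to all groups, so its calls rest on that shift being equal in them. The Ppbp iron-linked decrease was the only call with the block that held with each single array left out.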
